A study of Homo sapiens with 10 samples.

Results

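The genes described here are 10 heat shock chaperones and co-chaperones, chosen by name: HSPA1A, HSPA1B, HSPA8, HSPH1, DNAJB1, HSP90AA1, HSP90AB1, HSPB1, BAG3 and HSPD1. Each symbol matched 1 Ensembl identifier, so that 10 of the 58395 genes in the files were followed, and all 10 were among the 16905 genes that passed the filter on low counts. RNA was sequenced from HeyA8, an established human ovarian cancer cell line, after transfection with 10 nM of an siRNA duplex. The 5 groups of 2 libraries were siNT1 at 24 h, siGGGGGC at 24 h, siNT1 at 48 h, siGGCAGU at 48 h and siGGGGGC at 48 h, and no siGGCAGU library of 24 h was analysed here. siNT1 is the non-targeting control duplex, and siGGGGGC and siGGCAGU are named after their 6mer seed, the stretch of the guide strand that pairs with messenger RNAs as in a microRNA. The labels give the control as siNT1 S2'OM and title the siGGGGGC libraries siMxy and the siGGCAGU libraries si34a. The passenger strand of each duplex, siNT1 included, was chemically modified. All groups went through transfection, and an untransfected group was not analysed here. The duplicates were wells transfected in parallel, so the p-values measure the spread between wells and libraries of a single cell line. The wells of 48 h also had their medium changed at 24 h.

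Heat shock proteins keep other proteins folded. HSP70 proteins bind unfolded stretches in a cycle driven by ATP, J-domain proteins such as DNAJB1 deliver the client and start the cycle, and nucleotide exchange factors such as HSPH1 and BAG3 end it. HSP90 proteins finish the folding of kinases and steroid receptors, HSPB1 holds unfolded proteins without using ATP, and HSPD1 forms the folding chamber of the mitochondrion. When unfolded proteins accumulate, the transcription factor HSF1 is released from chaperones and binds heat shock elements, repeats of a short unit that alternate in direction, upstream of many of these genes.

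The seeds of both toxic siRNAs also occur in natural microRNAs, whose mature sequences are shown because they carry the letters that a target has to match. The sequences come from RefSeq on GRCh38.p14, hsa-miR-34a-5p from chr1:9151735-9151756 on the minus strand and hsa-miR-1237-5p from chr11:64368651-64368671 on the plus strand, and capitals mark bases 2 to 8.
hsa-miR-34a-5p: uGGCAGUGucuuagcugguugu
hsa-miR-1237-5p: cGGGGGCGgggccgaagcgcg
The seed match of siGGGGGC is GCCCCC, that of siGGCAGU is ACTGCC and that of siNT1 is CGACTA, all written as DNA on the strand of the messenger RNA. In the longest annotated 3′ UTR of each gene (GENCODE release 44, hg38), GCCCCC was found in 1 of the 10 chaperone genes, against 30.2% of 19249 genes with a 3′ UTR. ACTGCC was found in 4 of the 10, against 32.7% of genes. CGACTA was found in 1 of the 10, against 2.74% of genes.

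The sites are shown because they set the few chaperone messages that carry a seed match apart from the others. The siNT1 site is included because siNT1 is the control with which both toxic siRNAs are compared. Each line gives up to 30 bases around the match, with the match in capitals.
HSPB1, siGGGGGC, chr7:76303987-76303992: caggtcggggctGCCCCCcggtgtggaccc
HSPB1, siGGGGGC, chr7:76304054-76304059: ctgaccgtggagGCCCCCatgcccaagcta
HSPB1, siGGCAGU, chr7:76304159-76304164: aaatccgatgagACTGCCgccaagtaaagc
HSPA1A, siGGCAGU, chr6:31817848-31817853: agatgaatttatACTGCCatcttacgacta
HSPA1A, siNT1, chr6:31817860-31817865: actgccatcttaCGACTAtttcttcttttt
HSPA1B, siGGCAGU, chr6:31830119-31830124: aaatgaatcaacACTGCCaccttctgtacg
DNAJB1, siGGCAGU, chr19:14515403-14515408: tattcctgcagaACTGCCtggttggcgtcc
DNAJB1, siGGCAGU, chr19:14514837-14514842: ttgtaagttgccACTGCCaacatgagacca
HSPB1 and HSPA1A, HSPA1B lie on the plus strand and DNAJB1 on the minus strand. The HSPB1 sites fall in coding sequence in other annotated transcripts: of 11 coding transcripts of HSPB1, the first GCCCCC site is coding in 7, the second in 3 and the ACTGCC site in 4. With the shortest annotated 3′ UTR, GCCCCC was found in 0 of the 10 genes and ACTGCC in 2, HSPA1A and HSPA1B, while the CGACTA match of HSPA1A stayed. HSPA8, HSPH1, HSP90AA1, HSP90AB1, BAG3 and HSPD1 held no match to any of the 3 seeds in either choice of 3′ UTR.

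The promoters were searched for the heat shock element because it is the sequence through which HSF1 is known to act. The motif was 3 alternating units, GAANNTTCNNGAA or TTCNNGAANNTTC, on both strands of the RefSeq windows from 250 bases before to 50 bases after a start site (GRCh38.p14). It was found in the promoters of 4 of the 10 genes, HSPA8, HSP90AA1, HSP90AB1 and HSPD1, against 0.49% of 35116 promoters, or 0.608% of 27305 gene symbols. The stretches are given with the units in capitals, on the strand of the gene.
HSPA8, chr11:123062342-123062378, minus strand: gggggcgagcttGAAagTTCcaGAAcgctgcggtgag
HSPA8, chr11:123062167-123062203, minus strand: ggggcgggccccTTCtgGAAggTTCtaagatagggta
HSP90AA1, chr14:102087108-102087144, minus strand: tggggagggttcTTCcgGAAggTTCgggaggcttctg
HSP90AB1, chr6:44247766-44247802, plus strand: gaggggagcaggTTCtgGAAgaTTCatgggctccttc
HSP90AB1, chr6:44247819-44247855, plus strand: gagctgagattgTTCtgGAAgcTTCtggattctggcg
HSPD1, chr2:197500056-197500090, minus strand: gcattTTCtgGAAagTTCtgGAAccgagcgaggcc
The first base of the element lies 55 bases before the start site in the nearer HSPA8 site and 88 bases before it in HSP90AA1. With 2 units (GAANNTTC or TTCNNGAA), the motif was found in 8 of the 10 genes, against 13.5% of promoters, or 16.2% of gene symbols. These letters were not in the windows of HSPH1 and BAG3. The shorter motif is contained in the longer one. A match describes the letters only.

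Total counts per library ranged from 19781445 to 42428986, and the small structural RNAs RN7SL2 and SNORD3A took between 19.83% and 31.96% of them. The 10 chaperone genes together took between 0.69% and 1.31%. EIF5A fell by 2.09 and PES1 fell by 1.77 on the log2 scale with siGGGGGC against siNT1 at 24 h. The paper chose both for their fall in HeyA8 RNA sequencing 24 h after siGGGGGC, so they are no independent check of the labels. Of the markers of an ovarian carcinoma epithelium, CDH1 and MUC16 did not pass the filter on low counts and the other 7 did, and all 5 mesenchymal markers passed. Markers of blood, endothelial, liver and stromal cells summed to between 21.24 and 58.47 normalised counts, and 7 of these 10 genes stayed under 10 counts in every library.

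The chaperone genes fell into an abundant and a scarce set. For this comparison only, normalised read counts, scaled to the mean effective library size, were divided by the length of the main transcript. This gave a level per kilobase. Counts cover all exons of a gene, so the order can depend on the length chosen. All exons together span 5097 bases in HSP90AA1 and 8188 in DNAJB1, beside 3228 and 2242 in the main transcript. Other lengths were not tested. In siNT1 at 24 h the constitutive HSP70 gene HSPA8 had the highest level, 64300 ± 2070 per kilobase (SD, n = 2). HSP90AA1 followed at 30900 ± 1120, HSP90AB1 at 23700 ± 1520 and HSPD1 at 17100 ± 478. The other 6 were far lower, from HSPH1 at 665 ± 18.2 through DNAJB1 at 542 ± 28 and HSPB1 at 466 ± 14.7 down to HSPA1A at 313 ± 23.5, HSPA1B at 164 ± 18.8 and BAG3 at 144 ± 2.6 per kilobase. In that group no 2 neighbours in the order overlapped. HSPA1A and HSPA1B share most of their sequence, and how reads that match both were counted is not given. Their levels and places in the order are therefore uncertain in every group.

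With the same transcript lengths, the order at the top changed in a single group. In siGGGGGC at 48 h, HSP90AA1 had 24900 ± 1020 and HSPA8 had 23300 ± 156 per kilobase, and the libraries did not overlap, whereas HSPA8 ranked first in the other 4 groups. HSPB1 and HSPA1A could not be ordered in siGGGGGC at 24 h, nor HSPB1 and DNAJB1 in siNT1 at 48 h, nor DNAJB1 and HSPH1 in siGGCAGU at 48 h. At the lower end, BAG3 and HSPA1B could not be ordered in siNT1 at 48 h. BAG3 had 124, HSPA1B 119 and HSPA1A 117 per kilobase in siGGGGGC at 48 h, and neighbours in this order overlapped.

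The genes are spread over several chromosomes, and their counts are sums over all exons of a gene. On hg38 (GENCODE release 44), HSPA1A at chr6:31815543-31817946 and HSPA1B at chr6:31827738-31830254 are neighbours on the plus strand, with HSP90AB1 further along the same chromosome at chr6:44246166-44253888. HSPB1 at chr7:76302673-76304295 and BAG3 at chr10:119651380-119677819 are also on the plus strand. On the minus strand are HSPA8 at chr11:123057489-123063230, HSPH1 at chr13:31134973-31162388, HSP90AA1 at chr14:102080742-102139699, DNAJB1 at chr19:14514769-14560391 and HSPD1 at chr2:197486584-197516737.

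Several of these genes share sequence with near-identical copies, which bears on how reads were assigned. Of all 75-base windows of its main transcript, HSPA1A shared 73.8% with another gene and HSPA1B 73.3%, nearly all with each other. The share was 11.1% for HSPD1, 9.39% for HSPB1, 6.66% for HSP90AA1, 5.6% for HSP90AB1 and 1.92% for HSPA8, mostly with pseudogenes, and 0 for HSPH1, DNAJB1 and BAG3. The split between HSPA1A and HSPA1B is therefore uncertain, as is the level of both, and their sum is given beside the comparisons below.

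**Figure D1:**
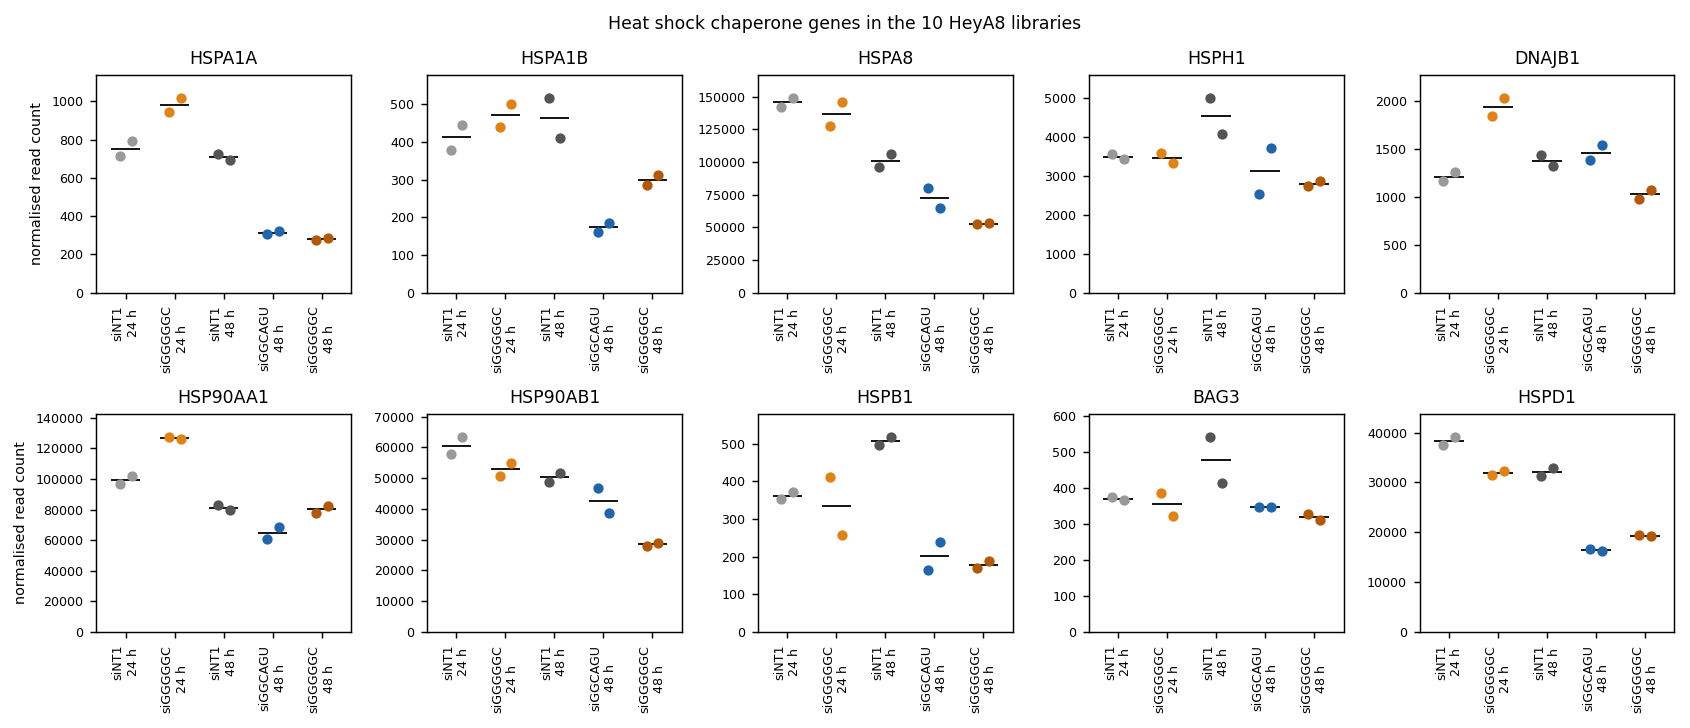
Normalised read count (vertical axis, from 0, a separate scale in each panel) of the 10 chaperone genes in the 5 groups; points are libraries and lines are means of 2. HSPA1A, HSPB1, HSPA8 and HSPD1 sit lower in both toxic siRNA groups at 48 h than in siNT1 at 48 h, and DNAJB1 is highest in siGGGGGC at 24 h.

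siGGGGGC was first compared with siNT1 at 24 h, where 3 of the 10 genes rose, 0 fell and 7 did not pass the test (adjusted p below 0.05). Over all genes tested, 10.6% rose and 8.31% fell. The median log2 fold change of the 10 genes was -0.04, beside 0.0038 over all genes tested. The 3 that rose were DNAJB1, HSPA1A and HSP90AA1. HSPA1B, which shares most of its sequence with HSPA1A, did not pass. No rise exceeded 1 on the log2 scale. Of the mesenchymal markers 3 of 5 were lower, with sums of 33430 to 33930 normalised counts beside 41560 to 41980 in siNT1, and of the epithelial markers 2 of 7 were higher and 1 was lower. Their part in the result was not tested. Of the 7, HSPD1 was lower at an unadjusted p below 0.05, and DESeq2 also called 1 of the 10 lower, beside the 0 of edgeR.

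DNAJB1 had 1171 and 1260 normalised counts in siNT1 and 1848 and 2037 in siGGGGGC. The groups did not overlap, and the log2 fold change was 0.68 (SE 0.0955, adjusted p = 0.000169), which kept its call whichever library was left out. HSPA1A had 712 and 792 in siNT1 and 944 and 1019 in siGGGGGC, again without overlap. Its log2 fold change was 0.38 (SE 0.0963, adjusted p = 0.0111), and it no longer passed without siNT1 replicate 1, at 0.31, or without siGGGGGC replicate 2, at 0.34. HSPA1B, which differs from HSPA1A mainly in its untranslated ends, had 378 and 445 in siNT1 and 440 and 501 in siGGGGGC. These overlapped, at a log2 fold change of 0.19 (95% confidence interval -0.1 to 0.49), while the sum of HSPA1A and HSPA1B rose by 0.32.

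The paralogues of cytosolic HSP90 had opposite signs at 24 h. HSP90AA1 had 97058 and 102160 normalised counts in siNT1 and 127350 and 126040 in siGGGGGC. It rose by 0.35 on the log2 scale (SE 0.104, adjusted p = 0.0294), but leaving out any of the 4 libraries of the comparison lost the call, at values between 0.31 and 0.4. HSP90AB1, the constitutive form, had 57807 and 63301 in siNT1 and 50816 and 54898 in siGGGGGC, at -0.2 (95% confidence interval -0.43 to 0.04). As a ratio of read counts, HSP90AA1 over HSP90AB1 was 1.68 and 1.61 in siNT1 and 2.51 and 2.3 in siGGGGGC.

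The other genes did not pass at 24 h. HSPD1 came closest, with 37555 and 39073 normalised counts in siNT1 and 31537 and 32334 in siGGGGGC. These did not overlap, at a log2 fold change of -0.26 (adjusted p = 0.0515). HSPB1 had 354 and 371 in siNT1 and 411 and 259 in siGGGGGC, so that its siGGGGGC libraries lay on either side of the control. HSPA8 changed by -0.1 (95% confidence interval -0.35 to 0.16), HSPH1 by -0.014 (-0.31 to 0.28) and BAG3 by -0.06 (-0.36 to 0.24), and the libraries of each overlapped.

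In the comparison of siGGGGGC with siNT1 at 48 h, 0 of the 10 genes rose, 9 fell and 1 did not pass. Over all genes tested, 27.8% rose and 27.5% fell. The median of the 10 genes was a log2 fold change of -0.71, beside -0.011 over all genes tested. HSPB1 and HSPA1A fell by more than 1 on the log2 scale, as did 11% of all genes tested. DESeq2 also called 0 higher and 9 lower, edgeR had 0 higher at an unadjusted p below 0.05, and the 9 calls remained whichever library was left out.

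HSPB1 fell the most. It had 496 and 517 normalised counts in siNT1 and 169 and 190 in siGGGGGC, a log2 fold change of -1.5 (SE 0.185, adjusted p = 5.72e-06). Its longest 3′ UTR is the only one of the 10 with the GCCCCC match shown above, and its shortest, of 119 bases, held 0. Of 11 coding transcripts of HSPB1, the 2 sites are coding in 7 and in 3. Which HSPB1 transcripts the cells used was not determined, so the sites may lie in coding sequence rather than in a 3′ UTR. The part of these sites in the fall was not tested. At 24 h its libraries overlapped the control. The inducible HSP70 HSPA1A had 724 and 693 in siNT1 and 275 and 288 in siGGGGGC, at -1.33 (SE 0.101, adjusted p = 3.65e-08). HSPA1B had 517 and 410 in siNT1 and 285 and 313 in siGGGGGC, at -0.63 (SE 0.135, adjusted p = 0.00101). The sum of both fell by 1.01.

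The abundant chaperones fell as well, and HSP90AA1 did not. HSPA8 had 95739 and 105930 normalised counts in siNT1 and 52575 and 53074 in siGGGGGC, at -0.93 (SE 0.123, adjusted p = 1.12e-05). HSP90AB1 had 48725 and 51819 in siNT1 and 27973 and 28938 in siGGGGGC, at -0.82 (SE 0.11, adjusted p = 1.38e-05). HSPD1 had 31214 and 32873 in siNT1 and 19477 and 19226 in siGGGGGC, at -0.73 (SE 0.0894, adjusted p = 5.55e-06). In these 3 genes both siGGGGGC libraries lay well below both controls.

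HSP90AA1 had 82887 and 79523 normalised counts in siNT1 and 77953 and 82621 in siGGGGGC, which overlap. Its log2 fold change was -0.016 with a 95% confidence interval of -0.24 to 0.21. The ratio of HSP90AA1 to HSP90AB1 was 2.79 and 2.86 in siGGGGGC at 48 h, above the 1.7 and 1.53 of siNT1 at 48 h and above the siGGGGGC libraries of 24 h.

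The co-chaperones HSPH1, BAG3 and DNAJB1 fell too. HSPH1 had 4995 and 4066 normalised counts in siNT1 and 2745 and 2855 in siGGGGGC, at -0.69 (SE 0.14, adjusted p = 0.000595). BAG3, which links HSP70 to autophagy, had 541 and 412 in siNT1 and 327 and 310 in siGGGGGC, at -0.58 (SE 0.131, adjusted p = 0.00159), and at -0.38 without siNT1 replicate 1. DNAJB1, which had risen at 24 h, had 1435 and 1329 in siNT1 and 985 and 1073 in siGGGGGC, at -0.42 (SE 0.0945, adjusted p = 0.00132). The summed epithelial markers stood between 6667 and 7002 normalised counts in siGGGGGC at 48 h and between 17850 and 23740 in the other libraries, with 5 of 7 tested markers lower against siNT1. The summed mesenchymal markers stood between 24020 and 24730, beside 42290 to 44330 in siNT1 at 48 h, with 4 of 5 lower. Their part in the result was not tested. Less RNA per cell and fewer cells of a kind cannot be told apart in bulk RNA.

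**Figure D2:**
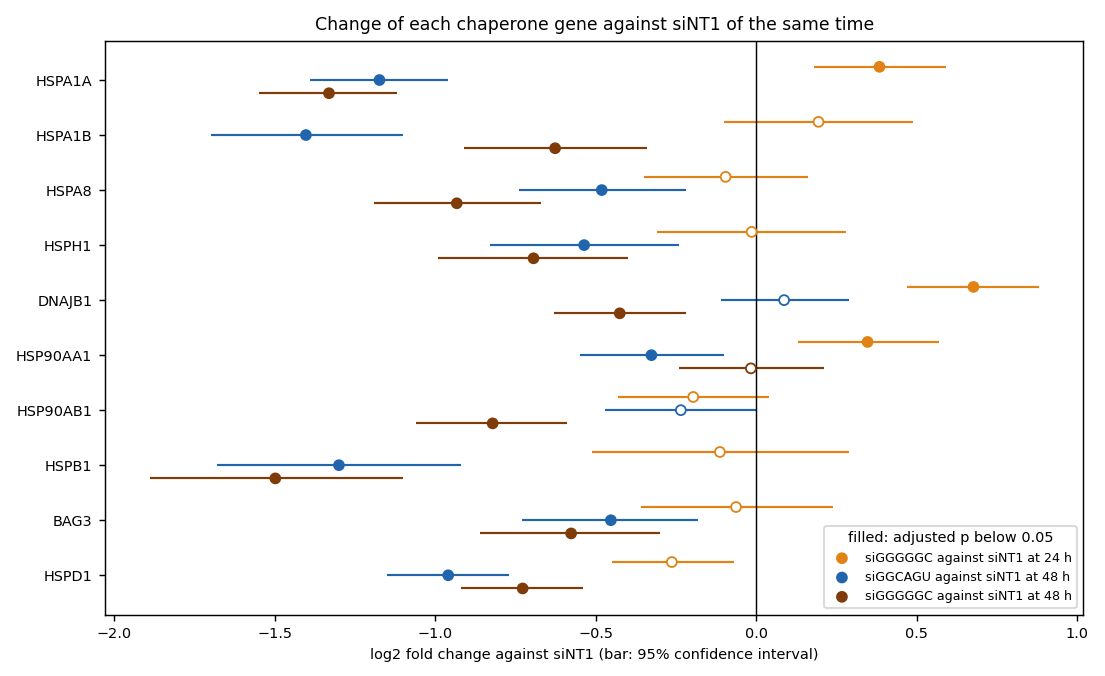
Log2 fold change (horizontal axis) of each chaperone gene against siNT1 of the same time, with 95% confidence intervals as bars and filled points where the adjusted p was below 0.05. At 48 h filled points lie to the left of 0 for both siRNAs, while the 3 filled points of 24 h lie to its right.

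Whether siGGGGGC acted differently at the later time was tested with an interaction term, its effect at 48 h minus its effect at 24 h. The term was negative and past the threshold in 8 of the 10 genes and positive in 0, against 15.2% negative and 13.4% positive over all genes tested. DESeq2 had 9 negative and 0 positive, and edgeR had 0 positive at an unadjusted p below 0.05. HSPA1A had a difference of -1.72 on the log2 scale (95% confidence interval -2.01 to -1.42, adjusted p = 6.23e-07), and the sum of HSPA1A and HSPA1B one of -1.33. HSPB1 stood at -1.39 (-1.95 to -0.82) and DNAJB1 at -1.1 (-1.39 to -0.82). HSPA1A and DNAJB1 had risen at 24 h and fallen at 48 h, so that for them the sign itself turned.

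The differences of HSPA8 at -0.84, HSPA1B at -0.82, HSPH1 at -0.68, HSP90AB1 at -0.62 and HSPD1 at -0.46 also passed. HSP90AA1 at -0.36 (95% confidence interval -0.68 to -0.05) and BAG3 at -0.51 (-0.92 to -0.1) did not pass after adjustment. Leaving out 1 library at a time gave between 6 and 10 genes past the threshold. HSPH1 lost its call without siNT1 of 24 h replicate 1 or 2, siGGGGGC of 24 h replicate 1, siNT1 of 48 h replicate 1 or siGGGGGC of 48 h replicate 1, at values between -0.71 and -0.54, and HSPD1 lost it without siNT1 of 24 h replicate 1, at -0.44.

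**Figure D3:**
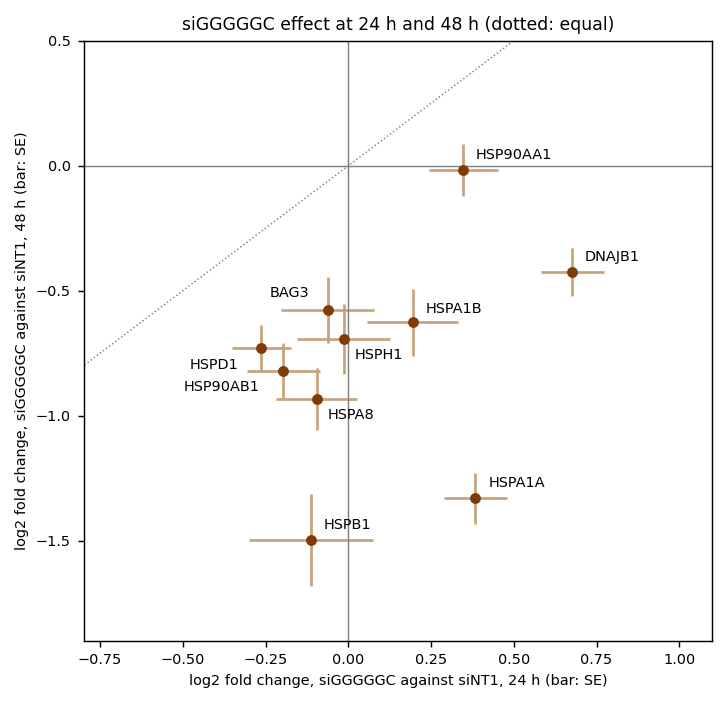
Log2 fold change of siGGGGGC against siNT1 at 24 h (horizontal axis) and at 48 h (vertical axis) for the 10 chaperone genes, with standard errors as bars and a dotted line where both are equal. All 10 points lie below the dotted line, and HSPA1A, DNAJB1, HSPA1B and HSP90AA1 lie to the right of 0 and below 0.

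The change of the control itself between 24 h and 48 h was compared next, since the medium was changed in between. In siNT1, 0 of the 10 genes rose and 1 fell, against 9.37% rising and 7.19% falling over all genes tested. At an unadjusted p below 0.05 edgeR had 3 higher and 4 lower, and DESeq2 called 0 higher and 3 lower. HSPA8 fell from 142300 and 148930 normalised counts at 24 h to 95739 and 105930 at 48 h, by 0.53 on the log2 scale (SE 0.122, adjusted p = 0.0105). It lost the call without siNT1 of 24 h replicate 1, at -0.56, or replicate 2, at -0.48, and without siNT1 of 48 h replicate 1, at -0.45. HSPB1 at 0.48 (95% confidence interval 0.11 to 0.85), HSPH1 at 0.38 (0.08 to 0.67) and BAG3 at 0.36 (0.08 to 0.64) were higher at 48 h without passing the adjusted threshold. Without siNT1 of 48 h replicate 2, HSPH1 at 0.53 and BAG3 at 0.55 passed, and so did HSPD1 at -0.29, whereas without replicate 1 HSPH1 was 0.23 and BAG3 0.17.

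siGGCAGU was compared with the same siNT1 libraries of 48 h, so the 2 comparisons at 48 h share their control. With siGGCAGU 0 of the 10 genes rose, 8 fell and 2 did not pass, against 27.8% rising and 24.9% falling over all genes tested. The median of the 10 was -0.51, beside 0.024 over all genes. HSPA1B, HSPB1 and HSPA1A fell by more than 1 on the log2 scale, as did 9.62% of all genes tested. DESeq2 called 0 higher and 9 lower, and edgeR had 0 higher at an unadjusted p below 0.05.

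The inducible HSP70 pair and HSPB1 had the largest falls. HSPA1B had 161 and 185 normalised counts in siGGCAGU beside 517 and 410 in siNT1, at -1.4 (SE 0.141, adjusted p = 6.48e-07). HSPA1A had 306 and 321 beside 724 and 693, at -1.17 (SE 0.0994, adjusted p = 9.69e-08), and the sum of both fell by 1.26. HSPB1 had 163 and 240 beside 496 and 517, at -1.3 (SE 0.18, adjusted p = 1.88e-05). These 3 genes carry an ACTGCC match in the longest 3′ UTR, though that of HSPB1 is coding in 4 of 11 coding transcripts. DNAJB1 also carries the match and did not fall. Its libraries had 1390 and 1540 beside 1435 and 1329, at 0.09 (95% confidence interval -0.11 to 0.29). The part of the ACTGCC matches in these changes was not tested.

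Among the genes with no seed match, HSPD1 fell the most, with 16663 and 16294 normalised counts beside 31214 and 32873, at -0.96 (SE 0.0898, adjusted p = 2.9e-07). HSPA8 had 80043 and 64453 beside 95739 and 105930, at -0.48 (SE 0.122, adjusted p = 0.00372). HSPH1 had 2529 and 3701, libraries far apart, beside 4995 and 4066, at -0.54 (SE 0.139, adjusted p = 0.0043), and ranged from -0.29 without siGGCAGU replicate 1 to -0.84 without replicate 2. BAG3 had 347 and 347 beside 541 and 412, at -0.45 (SE 0.13, adjusted p = 0.00816).

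HSP90AA1 had 60932 and 68598 normalised counts with siGGCAGU, at -0.33 (SE 0.104, adjusted p = 0.0155), and HSP90AB1 had 46779 and 38679, at -0.23 (95% confidence interval -0.47 to 0). BAG3 lost its call without siNT1 replicate 1, at -0.26, and HSP90AA1 lost it without siGGCAGU replicate 1, at -0.25, where HSP90AB1 passed at -0.38. The ratio of HSP90AA1 to HSP90AB1 was 1.3 and 1.77 with siGGCAGU, on either side of its siNT1 values. The epithelial markers summed to 19940 and 23740 normalised counts with siGGCAGU, beside 17850 to 18060 in siNT1 at 48 h. The mesenchymal markers summed to between 31270 and 34440, beside 42290 to 44330 in siNT1. Of 7 tested epithelial markers 2 were higher and 2 lower, and of 5 mesenchymal markers 1 was higher and 2 lower. Their part in the result was not tested.

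**Figure D4:**
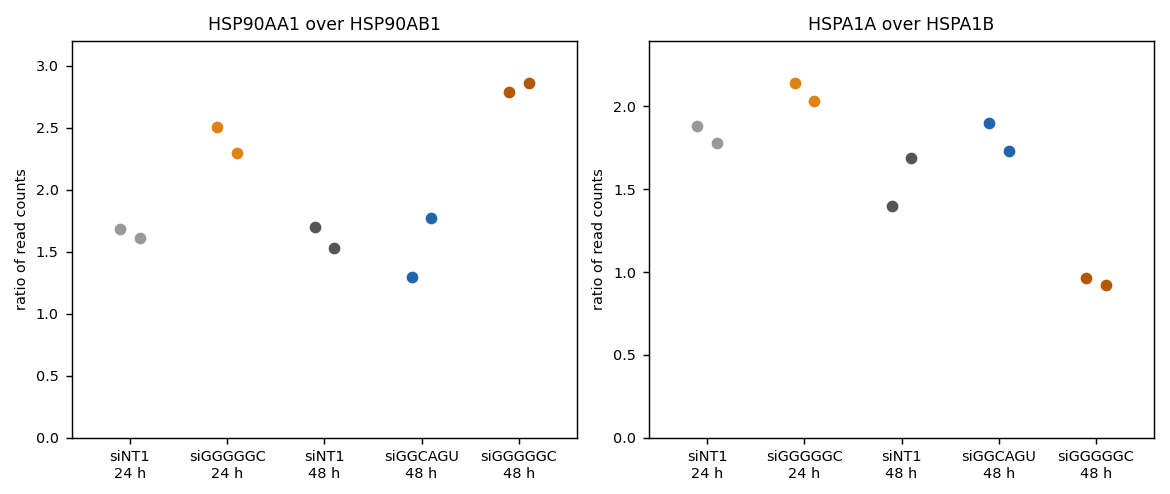
Ratio of read counts (vertical axis, from 0) of HSP90AA1 over HSP90AB1 and of HSPA1A over HSPA1B in the 5 groups, each point a library. The HSP90 ratio lies between 2.3 and 2.86 in the siGGGGGC libraries and between 1.3 and 1.77 in the others, and the HSPA1A ratio is below 1 only in siGGGGGC at 48 h.

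The toxic siRNAs were also compared with each other at 48 h. Of the 10 genes, 3 were higher with siGGGGGC, 3 were higher with siGGCAGU and 4 did not pass, against 26.7% and 27.6% of all genes tested. HSPA1B was higher with siGGGGGC by 0.78 on the log2 scale (SE 0.148, adjusted p = 0.000369), HSP90AA1 by 0.31 (SE 0.104, adjusted p = 0.0198) and HSPD1 by 0.23 (SE 0.0892, adjusted p = 0.0383). HSP90AB1 was lower with siGGGGGC, at -0.59 (SE 0.11, adjusted p = 0.00032), as were DNAJB1 at -0.51 (SE 0.0952, adjusted p = 0.000292) and HSPA8 at -0.45 (SE 0.122, adjusted p = 0.0054). For HSPA1A the difference was -0.16 (95% confidence interval -0.39 to 0.07), for HSPB1 -0.2 (-0.62 to 0.23), for HSPH1 -0.16 (-0.46 to 0.14) and for BAG3 -0.12 (-0.41 to 0.17).

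Several of these differences rested on few libraries. The sum of HSPA1A and HSPA1B differed by 0.25 and did not pass. Whether reads were assigned to the right copy was not tested. The ratio of HSPA1A to HSPA1B was 0.965 and 0.921 in siGGGGGC at 48 h and between 1.4 and 2.14 in the other 8 libraries. HSPD1 lost its call whichever of the 4 libraries compared was left out, at values between 0.21 and 0.25. HSP90AA1 lost it without siGGCAGU replicate 1, at 0.22, or without siGGGGGC replicate 1, at 0.35, or 2, at 0.27. HSPA8 lost it without siGGCAGU replicate 1, at -0.29, where HSPH1 passed at -0.41. HSP90AB1 and DNAJB1 kept theirs.

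The wider chaperone network was read from 9 lists with 112 genes, of which 102 were tested. Against siNT1, 21 rose and 5 fell with siGGGGGC at 24 h, 33 rose and 27 fell with siGGGGGC at 48 h, and 25 rose and 22 fell with siGGCAGU. These are 20.6% and 4.9%, beside 10.6% and 8.31% of all genes tested, then 32.4% and 26.5%, beside 27.8% and 27.5%, and 24.5% and 21.6%, beside 27.8% and 24.9%, so the shares of 48 h were near those of all genes. The counts of the single lists below are read against the same 3 pairs of shares. The medians of the 102 genes at 48 h, -0.02 and 0.02, lay near those of all genes tested. With 1 library left out at a time, both counts of 24 h fell in every case, and fewer of all genes passed too. At 48 h these counts lay between 26 and 30 higher and 19 and 28 lower with siGGGGGC, and between 22 and 27 higher and 20 and 28 lower with siGGCAGU. HSF1, the main activator of the heat shock response, did not pass with siGGGGGC at 24 h (0.13, SE 0.0952) or at 48 h (0.046, SE 0.0929). It rose with siGGCAGU by 0.38 (SE 0.0919, adjusted p = 0.0028), from 780 and 779 normalised counts to 980 and 1042. HSF2 rose with siGGGGGC at 48 h by 0.64 (SE 0.107, adjusted p = 0.000115), from 494 and 578 to 847 and 826, and did not pass in the other 2 comparisons with siNT1. With siGGCAGU it was -0.23 (95% confidence interval -0.46 to 0.01), and it passed without siNT1 replicate 1, at -0.34, or without siGGCAGU replicate 1, at -0.37, and was -0.11 without siNT1 replicate 2 and -0.09 without siGGCAGU replicate 2.

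Of 20 other J-domain proteins, 7 rose and 1 fell with siGGGGGC at 24 h, 8 rose and 1 fell with it at 48 h, and 8 rose and 6 fell with siGGCAGU. These are 35% and 5%, 40% and 5%, and 40% and 30% of the list. Leaving out any library of 24 h gave between 3 and 5 higher and 0 lower there, and without siNT1 of 48 h replicate 2 there were 3 lower with siGGGGGC at 48 h. DNAJB4, a close relative of DNAJB1, had 1213 and 1315 normalised counts in siNT1 at 48 h, 6123 and 5650 with siGGCAGU and 6726 and 5982 with siGGGGGC. It rose by 2.22 (SE 0.0957) and by 2.33 (SE 0.096), whereas DNAJB1 did not rise with either at that time. DNAJB6 had the largest rise of the list at 24 h, 0.84 (SE 0.0854). The largest falls in their comparisons were those of DNAJC10 at 24 h (-0.36, not past the threshold whichever of the 4 libraries was left out, between -0.43 and -0.28) and DNAJC9 with siGGCAGU (-1.07).

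Of the partners of HSP90, 3 rose and 2 fell of 16 at 24 h, 4 rose and 7 fell with siGGGGGC at 48 h, and 2 rose and 5 fell with siGGCAGU. These are 18.8% and 12.5%, 25% and 43.8%, and 12.5% and 31.2% of the list. CHORDC1, a co-chaperone of HSP90, had 2268 and 2226 normalised counts in siNT1 at 24 h and 4204 and 4267 with siGGGGGC, a rise of 0.91 (SE 0.0855), and rose by 0.72 at 48 h. FKBP5, which acts on steroid receptors, fell by 1.85 (SE 0.165) with siGGGGGC at 48 h and by 1.39 (SE 0.159) with siGGCAGU. HSP90B1, the HSP90 of the endoplasmic reticulum, fell by 0.82 (SE 0.143) at 24 h, and PPID had the largest rise with siGGCAGU, 0.27, which no longer passed without siNT1 replicate 1 or 2 or siGGCAGU replicate 2, at 0.23 to 0.26. Leaving out any library gave 1 higher and 1 lower at 24 h. With siGGGGGC at 48 h there were 2 higher without siNT1 replicate 1 or siGGGGGC replicate 2. With siGGCAGU there were 0 or 1 higher whichever library was left out, and 3 lower without siNT1 replicate 1 or siGGCAGU replicate 1 and 9 without siGGCAGU replicate 2.

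Among the other HSP70 genes, 1 rose and 1 fell of 10 tested at 24 h, 3 rose and 4 fell with siGGGGGC at 48 h, and 1 rose and 5 fell with siGGCAGU. These are 10% and 10%, 30% and 40%, and 10% and 50% of the list, so the shares of 24 h and the rises with siGGGGGC at 48 h were near those of all genes. HSPA14, a ribosome-associated HSP70, rose with siGGGGGC by 0.32 at 24 h, a call that was lost whichever of the 4 libraries was left out (0.3 to 0.36), and by 1.2 (SE 0.0952) at 48 h. HSPA2 fell by 1.01 with siGGGGGC at 48 h (adjusted p = 0.0498), not past the threshold without siNT1 replicate 1 (-0.81) or siGGGGGC replicate 1 (-0.45) and -2.08 without siGGGGGC replicate 2, and by 1.74 (SE 0.45) with siGGCAGU. HSPA5, the HSP70 of the endoplasmic reticulum, fell by 0.45 (SE 0.092) with siGGGGGC at 24 h, no longer past the threshold without siNT1 replicate 2 (-0.35), and rose by 0.77 (SE 0.0921) with siGGCAGU. With siGGGGGC at 48 h there were 2 lower without siNT1 replicate 1 or siGGGGGC replicate 2, and 1 without siGGGGGC replicate 1.

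HSPE1, the lid of the HSPD1 chamber, fell with HSPD1. It had 1745 and 1554 normalised counts in siNT1 at 48 h, 635 and 556 with siGGGGGC and 577 and 1094 with siGGCAGU, log2 fold changes of -1.47 (SE 0.2) and -0.96 (SE 0.194). The latter was -0.59 without siGGCAGU replicate 1 and -1.52 without replicate 2. The list of mitochondrial chaperones and proteases as a whole was divided: 4 rose and 3 fell of 13 with siGGGGGC at 48 h, 2 rose and 6 fell with siGGCAGU, and 4 rose and 0 fell at 24 h. These are 30.8% and 23.1%, 15.4% and 46.2%, and 30.8% and 0%. The 4 became 2 without siNT1 replicate 1 or siGGGGGC replicate 1 or 2, and the 0 was also 0 at an unadjusted p and with DESeq2. CLPP was among the largest rises of the list with siGGGGGC at 48 h, at 0.69. HTRA2 rose by 0.67 with siGGCAGU and by 0.68 with siGGGGGC at 24 h. The latter no longer passed without siGGGGGC replicate 2 (0.55).

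Chaperones of the endoplasmic reticulum numbered 1 higher and 2 lower of 16 at 24 h, 3 and 8 with siGGGGGC at 48 h and 6 and 4 with siGGCAGU. These are 6.25% and 12.5%, 18.8% and 50%, and 37.5% and 25% of the list. DNAJB9, a J-domain protein of that compartment, had the largest rise with siGGGGGC, by 0.57 at 24 h (not past the threshold without replicate 1 of either group, at 0.53 and 0.55) and by 1.75 (SE 0.127) at 48 h, and SERPINH1, the collagen chaperone, fell by 1.58 (SE 0.113) at 48 h. With siGGCAGU, CRELD2 rose by 0.9 and DNAJB11 fell by 0.6, with a value of -0.38 without siGGCAGU replicate 1 and -0.9 without replicate 2. At 24 h there were 0 higher without replicate 1 of either group and 1 lower without siNT1 replicate 2. The 8 lower with siGGGGGC at 48 h became 5 without replicate 1 of either group and 4 without siGGGGGC replicate 2, and the 4 lower with siGGCAGU became 1 or 2 without siNT1 replicate 1 or 2 or siGGCAGU replicate 1.

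Among exchange and binding factors of HSP70, 2 rose and 0 fell of 11 at 24 h, 1 rose and 4 fell with siGGGGGC at 48 h, and 2 rose and 1 fell with siGGCAGU. These are 18.2% and 0%, 9.09% and 36.4%, and 18.2% and 9.09% of the list. Leaving out any library of 24 h gave 0 or 1 higher there, where edgeR had 1 lower at an unadjusted p below 0.05 and DESeq2 0. With siGGCAGU there were 4 higher without siGGCAGU replicate 2, and 2 lower without that library or siNT1 replicate 1. The ubiquitin ligase STUB1 rose by 0.93 (SE 0.277) at 24 h, 1.44 without siNT1 replicate 1 and not past the threshold without siNT1 replicate 2 (0.59) or siGGGGGC replicate 1 (1.03) or 2 (0.84), and by 1.17 (SE 0.205) with siGGCAGU, and BAG1 fell with siGGCAGU by 1 (SE 0.107). With siGGGGGC at 48 h GRPEL2 rose by 0.48 and BAG6 fell by 0.72.

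Of the heat shock factors and regulators, 2 of 11 rose and 0 fell at 24 h, 6 rose and 2 fell with siGGGGGC at 48 h, and 4 rose and 1 fell with siGGCAGU. These are 18.2% and 0%, 54.5% and 18.2%, and 36.4% and 9.09% of the list. At 24 h the 0 was also 0 at an unadjusted p and with DESeq2, and 1 rose without siNT1 replicate 1 or 2 or siGGGGGC replicate 2. With siGGCAGU there were 2 lower without siNT1 replicate 1 or 2 and 3 without siGGCAGU replicate 1. HIKESHI, which carries HSP70 into the nucleus, rose by 0.56 at 24 h. HSF2BP rose by 1.82 and HDAC6 fell by 1.18 with siGGGGGC at 48 h, and HSBP1L1 rose by 1.23 and SIRT1 fell by 1.02 with siGGCAGU.

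The cytosolic chamber TRiC and its partner prefoldin had 2 of 14 subunits higher and 1 lower at 24 h, 6 and 2 with siGGGGGC at 48 h and 3 and 0 with siGGCAGU, where edgeR had 1 lower at an unadjusted p below 0.05 and DESeq2 had 0. These are 14.3% and 7.14%, 42.9% and 14.3%, and 21.4% and 0%. PFDN1 rose with siGGGGGC by 0.49 at 24 h and by 1.04 (SE 0.106) at 48 h, PFDN5 rose by 1.18 with siGGCAGU, PFDN6 fell by 0.43 at 24 h and PFDN2 fell by 0.74 with siGGGGGC at 48 h. In siNT1 between 24 h and 48 h, 10 of the 14 subunits, 71.4%, were lower and 0 higher, beside 7.19% of all genes lower and 9.37% higher. Without siNT1 of 24 h replicate 1 or 2 or siNT1 of 48 h replicate 1, 0 were lower, and 546, 470 and 752 of all genes passed in either direction. DESeq2 had 11 lower and 0 higher, and 0 were higher at an unadjusted p. Leaving out any library of 24 h gave 0 or 1 higher and 0 lower there. With siGGCAGU there was 1 lower without siNT1 replicate 1 or siGGCAGU replicate 1 or 2, and with siGGGGGC at 48 h 1 lower without siGGGGGC replicate 1. PFDN1 at 24 h did not pass without siNT1 replicate 1 (0.46) or siGGGGGC replicate 2 (0.37), PFDN6 did not whichever of the 4 libraries was left out (-0.47 to -0.38), and PFDN2 did not without siGGGGGC of 48 h replicate 1 (-0.61). Of the 9 other small heat shock proteins listed only HSPB8 was tested, and it fell by 1.44 (SE 0.502) with siGGGGGC at 48 h, a call that was lost whichever of the 4 libraries was left out (-1.7 to -1.24).

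**Figure D5:**
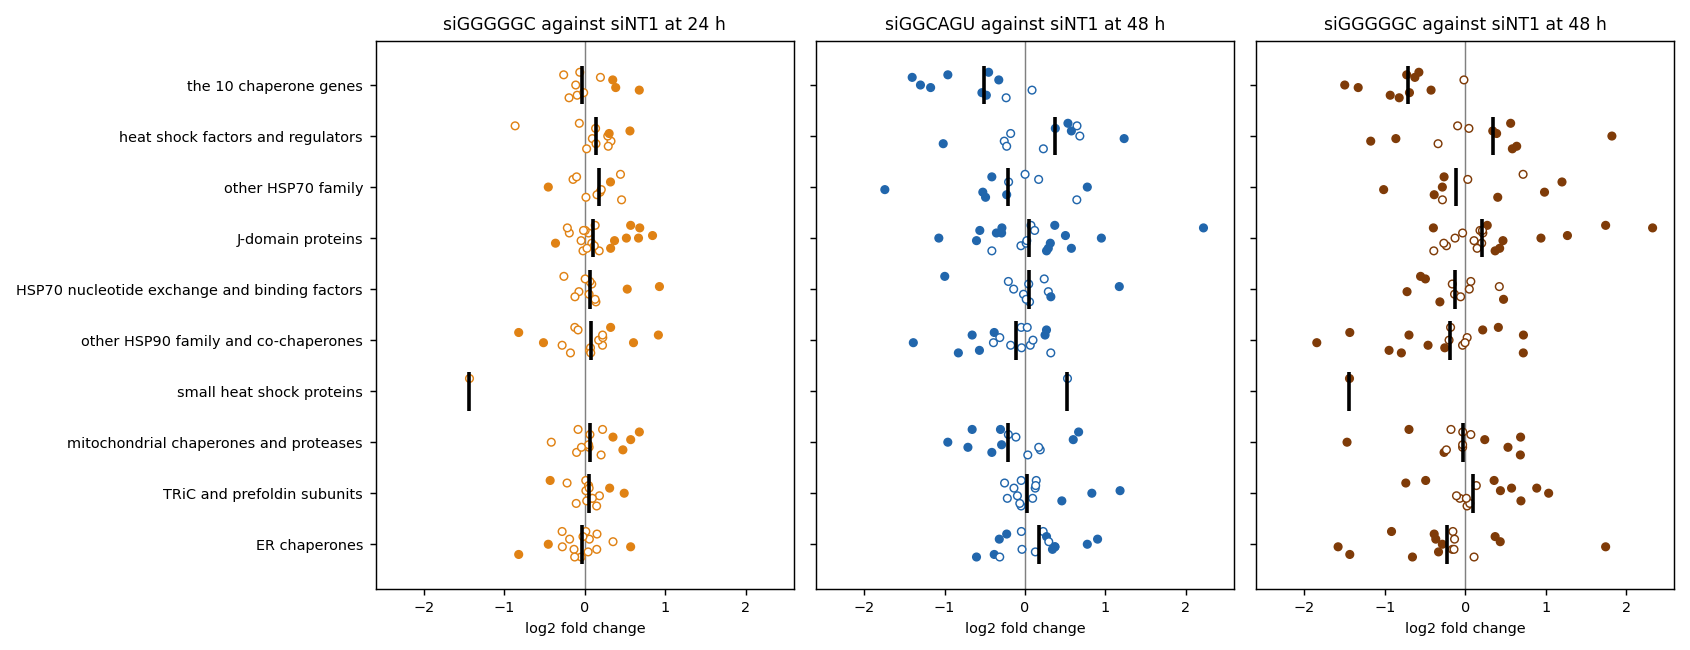
Log2 fold change (horizontal axis) against siNT1 of the 10 chaperone genes and of the tested genes of 9 lists, in 3 comparisons; points are genes, filled where the adjusted p was below 0.05, and thick lines are medians. At 48 h the 10 genes have medians of -0.51 and -0.71, and the J-domain gene at the far right of both 48 h panels is DNAJB4.

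The chaperone genes were compared with each other over the 10 libraries. Of 45 pairs, 44 had a Pearson correlation of log2 CPM above 0, with a median of 0.595 and a range from -0.00611 to 0.951, the highest between HSPA8 and HSP90AB1. Of all pairs of the 9979 genes with a mean normalised count of at least 100, 50% were above 0. HSPA1A and HSPA1B share most of their sequence, and 9 of the 10 genes fell together with siGGGGGC at 48 h, which enters these values. The libraries share groups and normalization, so these values are descriptions. Among the other 9978 of these genes, SPDL1 (0.994) and H2BC9 (0.988) were among the 3 most like HSPA1A over the 10 libraries. Those most like HSPA8 were WDR12 (0.994), GEMIN6 (0.99) and RABEPK (0.99), and those most like HSPD1 were IPO5 (0.994), NOP56 (0.993) and WDR83OS (0.993).

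HSP90AA1 was most like HSP90AA2P (0.99), a pseudogene that shares 5.45% of its windows, then THEM6 (0.974) and CTBP2 (0.973). DNAJB1 was most like AMDHD2 (0.954), NTMT1 (0.95) and CCDC71 (0.931). HSPB1 was most like TERF1 (0.985), VPS4A (0.975) and BAZ1B (0.969), and BAG3 most like MYO6 (0.96), PLEKHG4 (0.95) and KAT2A (0.947). With rank correlations between 0 and 2 of the 3 names were the same, so the names depend on the measure.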

How the data were processed

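Total RNA of HeyA8 cells was depleted of ribosomal RNA and sequenced in pairs of reads. The authors trimmed the reads, mapped them to hg38, counted exonic reads by Ensembl gene in HTSeq, and deposited raw read counts per gene, 1 file for each of 10 libraries. The submitters' processing notes list TopHat and Bowtie2 as aligners, while the study's methods name TopHat or STAR. The strand setting is not given in the sources used here. The authors' 4 deposited comparison tables hold fold changes and p-values and were not used. Counts were analysed with edgeR 4.0.16 (R 4.3.3): filterByExpr on the 5 groups, TMM, and the quasi-likelihood F test in a single fit of 10 libraries with 5 residual degrees of freedom, adjusted by Benjamini-Hochberg over 16905 genes, with a threshold of 0.05. The standard error is the fold change divided by the root of F. The fit was tested on simulated data. Groups came from the labels, and symbols were matched to GENCODE release 44. Log2 CPM used a prior count of 2. Replicates differed by more than sampling noise in every group, and least at 24 h. The chi-square of their raw counts per degree of freedom was 2.19 in siNT1 and 3.15 in siGGGGGC at 24 h. At 48 h it was 31.4 in siNT1, 40 in siGGCAGU and 10.3 in siGGGGGC. The measure includes RN7SL2 and SNORD3A and grows with counts and depth, so it is not an even average over genes. The single fit shares the spread over the 5 groups and does not allow for a spread that differs between them. Chaperone genes, lists and tests were chosen with earlier results of these data known. Named genes were the 10, HSF1 and HSF2, the largest rise and fall of each list against siNT1, and the 3 most correlated genes of 7 members. Results for 2 genes that this rule named are not reported here. Alternatives were DESeq2 1.42.0, other size factors, filters, libraries and a replicate block. Counting error and the spread of 2 libraries limit the precision.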

Additional observations from a re-analysis of the deposited data

Results flagged for a closer look

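The effect of siGGGGGC against siNT1 differed between 48 h and 24 h in 8 of the 10 chaperone genes, by the interaction term of the edgeR fit. On the log2 scale the effect at 48 h minus that at 24 h was -1.72 for HSPA1A, -1.39 for HSPB1, -1.1 for DNAJB1, -0.84 for HSPA8, -0.82 for HSPA1B, -0.68 for HSPH1, -0.62 for HSP90AB1 and -0.46 for HSPD1. The sum of HSPA1A and HSPA1B, which share most of their sequence, had -1.33. The times also differ by the change of medium at 24 h, which cannot be told apart from time.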

How the results depend on the processing

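Of 760 recomputed values of the 10 chaperone genes, 686 kept their direction and their side of the threshold, 30 lost the call, 32 gained it and 12 changed sign. Of 596 recomputed values of the named genes of the wider lists, 549 kept both, 41 lost the call, 4 gained it and 2 changed sign. For siGGGGGC against siNT1 at 24 h, chaperone genes higher numbered 0 beyond 1 on the log2 scale, and those lower numbered 1 with the small structural RNAs left out, with a mean count of at least 50 or with DESeq2, and 2 with only the libraries compared. In the wider lists, 0 rose and 0 fell beyond 1, and 8 fell with a mean count of at least 50 and 16 with only the libraries compared. At 48 h, beyond 1, siGGGGGC had 2 chaperone genes lower, with 6 genes of the wider lists higher and 7 lower, and siGGCAGU had 3 lower, with 4 higher and 4 lower. With only the libraries compared, 14 genes of the wider lists rose with siGGCAGU. Between the toxic siRNAs, 0 chaperone genes were higher and 0 lower beyond 1, and 5 and 8 of the wider lists. In siNT1 over time, 3 were higher with no filter on low counts and 2 with only the libraries compared, 2 were lower with the small RNAs left out or a mean count of at least 50, 3 with DESeq2 and 0 beyond 1. The interaction had 3 lower beyond 1. With HSPA1A and HSPA1B summed, the difference of the toxic siRNAs was 0.25 and the change of siNT1 over time 0.009, the sign opposite to HSPA1A alone. HSF1 with siGGGGGC at 48 h was -0.08 with no filter, a setting that shifted the median of all genes by -0.121, and by -0.133 in the interaction. The cause of these moves was not tested.

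Leaving out 1 library at a time, siGGGGGC at 24 h gave 1 to 2 chaperone genes higher, and 8 to 11 higher and 1 to 2 lower in the wider lists. HSPA8 ranged from -0.19 to 0.007, HSPH1 from -0.06 to 0.049, HSPB1 from -0.48 to 0.19 and BAG3 from -0.19 to 0.07. With siGGGGGC at 48 h HSP90AA1 ranged from -0.06 to 0.019 and HSF1 from -0.018 to 0.1. Between the toxic siRNAs HSPH1 ranged from -0.41 to 0.14 and HSPB1 from -0.42 to 0.13. In siNT1 over time HSPA1A ranged from -0.16 to 0.006. Fewer of all genes tested also passed with siGGGGGC at 24 h, whichever library of 24 h was left out.

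Equal replicate numbers did not pair the libraries: the correlations of deviations lay between -0.0894 and 0.0266, with 0 of 10 above 0.1. With the replicate block, 3 genes of the wider lists fell at 24 h, HSPD1 between the toxic siRNAs lost its call at 0.23, and BAG3 in the interaction gained it at -0.51. Groups of 2 libraries limit the precision of every value.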
